A study of Mus musculus with 2 samples.

Results

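The EphB receptors and the B-type ephrins are 8 genes, the receptors Ephb1, Ephb2, Ephb3, Ephb4 and Ephb6 and the ligands Efnb1, Efnb2 and Efnb3. They were chosen by name among the 43346 genes of the deposited tables, with each gene identifier matched to its symbol in GENCODE. All 8 were found, and all 8 were at 1 TPM or more in both libraries (a share of all transcripts, corrected for length), beside 12081 of 21474 protein-coding genes (56.3%). The study measured total RNA from whole limb tissue of healthy B6NCrl mouse embryos at 11.5 days. It has 1 group of 2 libraries, which the labels number as biological replicates 1 and 2, made from pools of 109 and 88 embryos of both sexes. RNA longer than 200 nt was extracted with the mirVana kit, with 10 ng as input and added spike-in RNAs. No treatment, genotype or stage was compared, each library averages many embryos, and a lower level cannot be told apart as fewer cells of a type or less RNA per cell. The labels name no fore- or hindlimb. Genes drew 40.6 M and 32.3 M reads (expected counts) in replicates 1 and 2, at which 1 read on a transcript of 2 kb is worth 0.0187 and 0.0225 TPM.

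EphB receptors are receptor tyrosine kinases, and B-type ephrins are ligands that span the membrane, so that receptor and ligand meet where cells touch. Contact signals in both directions, forward into the cell with the receptor and in reverse into the cell with the ephrin, and often ends in repulsion or in the sorting of cells. In embryos these genes are known for artery and vein identity, axon guidance and boundary formation, and in the limb for skeletal patterning and motor axon choice.

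Ephb4 was the highest of the 8 genes. It encodes the receptor known from veins and binds Efnb2 above the other B-type ephrins. Ephb4 stood at 56.5 TPM in replicate 1 and 57.0 TPM in replicate 2, a mean of 56.7 ± 0.361 TPM (SD, n = 2), from 6609 and 5610 reads. That mean lay above 87.4% of the protein-coding genes. The gene lies on chromosome 5 from 137350109 to 137378669 on the plus strand (GRCm38).

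Ephb3, a receptor known from the gut, palate and commissural axons, was the next receptor by level. Its values were 26.0 and 26.4 TPM, a mean of 26.2 ± 0.318 TPM (SD, n = 2), from 2882 and 2516 reads. In deposited TPM, whose total includes the spike-ins, the libraries differed less in Ephb3 and Ephb4 than in Ephb2 or any of the ligands. With spike-ins left out of the total, Ephb3 had 29.5 and 31.9 TPM and Ephb4 64.0 and 68.8 TPM. These gaps in TPM were wider than that of Efnb3 (12.9 and 11.5 TPM). As the log2 ratios given below, Ephb3 (0.12) and Ephb4 (0.08) stayed smaller in size than Ephb2 (0.26) and each ligand (0.15 to 0.23). Ephb3 lies on chromosome 16 from 21204755 to 21223305 on the plus strand.

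Ephb6 and Ephb2 were close to each other and well below Ephb3. Ephb6, whose product binds ephrins and lacks kinase activity, had 11.7 and 11.1 TPM (11.4 ± 0.460, SD, n = 2), from 864 and 657 reads. Ephb2, which guides motor axons into the ventral limb together with Ephb1, had 9.81 and 11.98 TPM (10.9 ± 1.53, SD, n = 2), from 1487 and 1426 reads. Ephb6 was above Ephb2 in replicate 1 and below it in replicate 2, so the libraries gave no one order. Ephb6 lies on chromosome 6 from 41605482 to 41620509 on the plus strand, and Ephb2 on chromosome 4 from 136647539 to 136835988 on the minus strand.

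Ephb1 was the lowest of the 8. It had 1.30 and 1.62 TPM (1.46 ± 0.226, SD, n = 2), from 159 and 164 reads, and its mean lay above 45.2% of the protein-coding genes. The deposited credibility intervals for its level, 1.11 to 1.53 TPM in replicate 1 and 1.38 to 1.88 TPM in replicate 2, overlapped. Those of Ephb2 (9.31 to 10.9 and 11.3 to 13.2 TPM), Efnb2 (19.0 to 20.6 and 21.5 to 23.5 TPM) and Efnb3 (10.5 to 11.8 and 8.62 to 10.0 TPM) did not. The share of all genes without overlap was not counted. These limits are in deposited TPM, whose total includes the spike-ins (11.8% and 17.2% of TPM in replicates 1 and 2). Whether intervals overlap depends on that total, so no difference is read from this. The intervals cover counting and read assignment within a library only, and the sources used here do not give their level. Ephb1 lies on chromosome 9 from 101922128 to 102354693 on the minus strand and spans 433 kb, the longest of the 8.

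Among the ligands, Efnb1 was the highest. It is X-linked, is known for craniofacial and digit defects when mutated, and lies from 99136130 to 99148991 on the plus strand of that chromosome. Efnb1 had 31.1 and 33.8 TPM (32.5 ± 1.93, SD, n = 2), from 2766 and 2462 reads. Both libraries pool embryos of both sexes, and the sources used here do not give the share of each sex.

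Efnb2, the ligand that marks arteries, followed Efnb1. Its values were 20.1 and 22.8 TPM (21.5 ± 1.91, SD, n = 2), from 2396 and 2258 reads, and the gene lies on chromosome 8 from 8617434 to 8661242 on the minus strand. Efnb3, known as a midline barrier to corticospinal axons, had 11.4 and 9.54 TPM (10.5 ± 1.29, SD, n = 2), from 988 and 688 reads. It lies on chromosome 11 from 69554092 to 69560205 on the minus strand. Efnb1 and Efnb2 were higher in replicate 2 and Efnb3 was lower there, while the order of the 3 ligands was the same in both libraries.

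**Figure D1:**
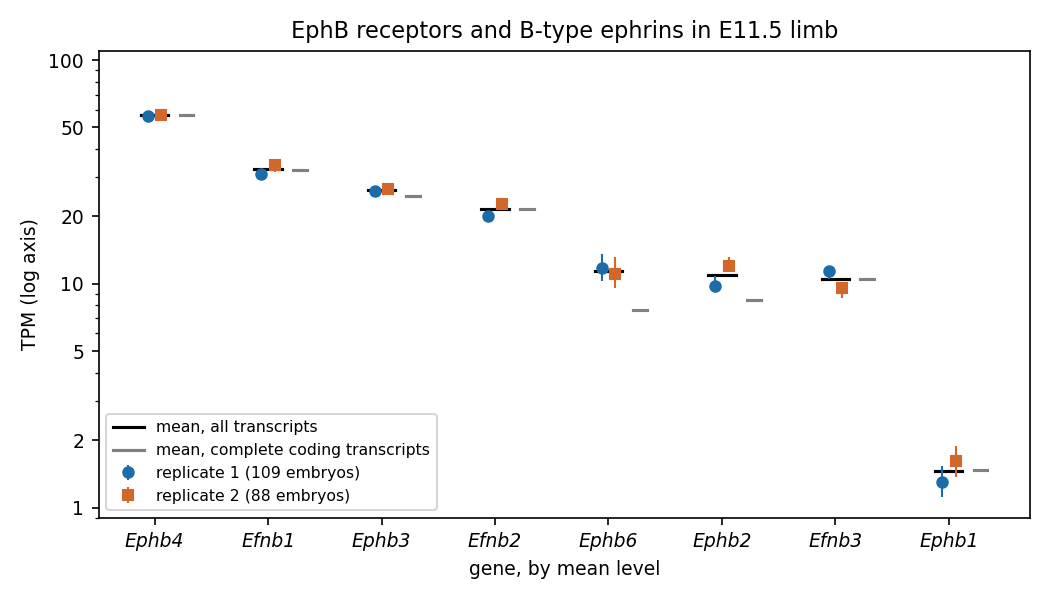
TPM of the 8 genes on a log axis, ordered by mean; points are the 2 libraries with the deposited credibility interval, black bars the mean over all transcripts and grey bars the mean over complete coding transcripts. Ephb4 sits near 57 TPM and Ephb1 near 1.46 TPM, and the grey bar falls clearly below the black one in Ephb6 and Ephb2.

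The order by mean level was Ephb4, Efnb1, Ephb3, Efnb2, Ephb6, Ephb2, Efnb3 and Ephb1. With 2 libraries no permutation test can go below 0.33, so each log2 ratio between 2 genes was set against the 95th percentile of the differences that all genes of like abundance showed between the pools. Of the 7 neighbouring pairs, 3 differed by more than that spread. Ephb4 was 1.75-fold above Efnb1 (log2 0.81 against a spread of 0.29). Efnb2 was 1.88-fold above Ephb6 (log2 0.91 against 0.40). Efnb3 was 6.78-fold above Ephb1 (log2 2.76 against 1.08). The other 4 pairs did not exceed it: Efnb1 over Ephb3 (0.31 against 0.34), Ephb3 over Efnb2 (0.29 against 0.34), Ephb6 over Ephb2 (0.07 against 0.47) and Ephb2 over Efnb3 (0.06 against 0.47). By this measure the 8 genes fell into 4 levels. These were a leading receptor, a middle run of Efnb1, Ephb3 and Efnb2, a lower run of Ephb6, Ephb2 and Efnb3, and Ephb1 alone at the bottom. With the 90th percentile as the spread, the neighbours of the middle run differed beyond it too. The spread compares each gene with itself between the pools, so it does not cover errors that differ from gene to gene. Within the middle run Efnb1 and Efnb2 did differ beyond the spread (log2 0.59 against 0.34). Of all 28 pairs, 23 did.

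Summed over the class, the 5 receptors held 105 TPM in replicate 1 and 108 TPM in replicate 2, and the 3 ligands 62.6 and 66.2 TPM. Ephb4 made up 53.6% and 52.7% of the receptor sum, and Efnb1 49.7% and 51.1% of the ligand sum. Ephb3 added 24.7% and 24.5% of the receptor sum, and Ephb1 1.235% and 1.499%. The sum of the 5 receptors exceeded that of the 3 ligands by a ratio of 1.68 and 1.63. This ratio depends on the number of genes on each side, and it includes the transcripts without a complete coding sequence described below. For the vein and artery pair, Ephb4 stood at 2.80 and 2.50 times the level of Efnb2.

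The A class served as the nearest comparison, since its receptors and ligands work in the same way except that its ligands are held by a lipid anchor. The 9 class A receptors summed to 92.8 and 107 TPM, and the B class held 53.2% and 50.2% of all receptor TPM. The 5 class A ligands summed to 152 and 147 TPM, so that the B class held 29.2% and 31.0% of the ligand TPM. All 5 class B receptors were at 1 TPM or more in both libraries, against 6 of the 9 of class A. Epha7, an axon guidance receptor, was the highest of class A at 43.6 ± 3.37 TPM (SD, n = 2), below Ephb4 in each library, and Epha10 was the lowest at 0.1 ± 0.0424 TPM. Epha4, which also binds B-type ephrins and acts in limb motor axon choice, had 32.8 and 38.5 TPM, between Ephb4 and Ephb3. Among the class A ligands Efna2 was the highest at 40.7 ± 0.0141 TPM and Efna3 the lowest at 12.5 ± 3.01 TPM. Efna5, which also binds Ephb2, had 26.0 and 24.3 TPM. These shares depend on the scale: on expected counts, which are not divided by length, the B class held 47.5% of the receptors and 42.1% of the ligands as the mean of the libraries.

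**Figure D2:**
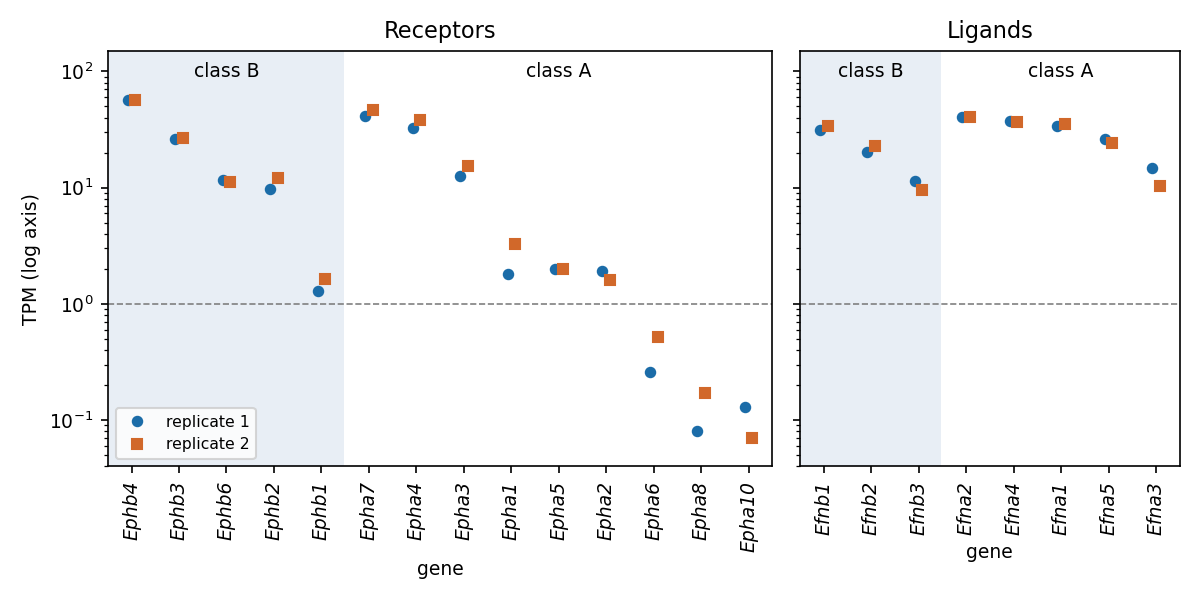
TPM on a log axis of the 14 Eph receptors (left) and the 8 ephrins (right), class B shaded, with 1 point per library and a dashed line at 1 TPM. All 8 class B genes lie above the line, 3 class A receptors (Epha6, Epha8 and Epha10) lie below it, and Ephb4 is the highest point of all.

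GENCODE lists 27 transcripts for the 8 genes in these tables. Of these 18 were above 0 in both libraries, 6 were listed at 0 in both and 3 were above 0 in 1 library only. The ligands were nearly uniform. Efnb3 has 1 transcript, Efnb2-201 held 100% of its gene in both libraries, and Efnb1-201 held 100% and 98.1%. The receptors split among several, and the sequences at which their main transcripts part are printed here because they show what each form would add or lose.

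For Ephb4 the gene level in deposited TPM was nearly equal in the pools, while the shares of its transcripts were not. With spike-ins left out of the total, the gene had 64.0 and 68.8 TPM. Ephb4-201 held 74.8% of the gene in replicate 1 and 89.0% in replicate 2. Its deposited intervals, 37.6 to 44.6 TPM and 45.0 to 51.0 TPM, did not overlap. Such intervals hold no spread between libraries, and the share of all transcripts without overlap was not counted, so no difference is read from this. Ephb4-203 begins an exon 27 nt earlier than Ephb4-201, in the extracellular part of the coding sequence, and the insert keeps the reading frame. It held 10.3% and 5.47%, from 690 and 306 estimated reads. The junction of each form follows, in GRCm38 coding strand sequence from GENCODE M21 transcripts, with the 27 inserted bases (chr5:137362363-137362389, plus strand) in capitals and 30 bases on either side.
Ephb4-203 junction: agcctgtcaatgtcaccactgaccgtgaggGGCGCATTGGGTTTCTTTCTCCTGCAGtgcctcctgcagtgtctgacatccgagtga
Ephb4-201 junction: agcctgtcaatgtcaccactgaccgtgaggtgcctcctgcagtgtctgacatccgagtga

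Ephb4-202 leaves out the exon before the last coding exon of Ephb4-201. It held 14.3% in replicate 1 and 5.58% in replicate 2, from 840 and 274 estimated reads. The skipped exon is 156 nt, again a multiple of 3, lies at chr5:137372385-137372540 on the plus strand, and codes for part of the sterile alpha motif, a protein interaction domain near the end of Eph receptors. Its intervals, 4.92 to 11.3 TPM and 1.52 to 6.31 TPM, overlapped, as did those of Ephb4-203. The whole exon is given in capitals.
Ephb4 exon skipped in Ephb4-202: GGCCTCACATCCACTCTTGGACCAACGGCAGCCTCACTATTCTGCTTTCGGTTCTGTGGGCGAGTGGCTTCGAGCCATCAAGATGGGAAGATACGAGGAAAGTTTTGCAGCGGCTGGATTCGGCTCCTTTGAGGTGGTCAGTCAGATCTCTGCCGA

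Ephb1 also had a form that skips a whole exon in frame. Ephb1-201 held 68.0% and 60.8% of the gene, and Ephb1-202, which lacks the exon, 23.4% and 35.1%. These shares rest on only 34.3 and 53.4 estimated reads for Ephb1-202, and the interval of its level in replicate 1 reached from close to 0 to 0.708 TPM and overlapped that of replicate 2 (0.155 to 1.04 TPM). The exon is 123 nt at chr9:101984082-101984204 on the minus strand. It codes for part of the juxtamembrane stretch, which holds tyrosines that Eph receptors phosphorylate on activation. It is given in capitals.
Ephb1 exon skipped in Ephb1-202: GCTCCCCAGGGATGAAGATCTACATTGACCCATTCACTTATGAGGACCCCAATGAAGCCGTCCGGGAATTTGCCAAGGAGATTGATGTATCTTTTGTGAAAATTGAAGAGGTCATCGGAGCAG

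Ephb2 had the lowest share in its leading transcript. Ephb2-201 held 54.6% and 57.4% of the gene, Ephb2-202 20.2% and 15.5%, and the retained intron transcript Ephb2-204 23.3% and 22.1%. Ephb2-204 codes for no complete receptor and drew 156 and 150 estimated reads. Without it, Ephb2 had 7.53 and 9.32 TPM. Ephb2-202 differs from Ephb2-201 in coding sequence by 3 bases (chr4:136675531-136675533, minus strand), and after the coding part it runs on for 7786 nt against 1717 nt. On reads rather than TPM its share was 40.5% and 33.0%. The junctions follow, with the 3 bases in capitals.
Ephb2-201 junction: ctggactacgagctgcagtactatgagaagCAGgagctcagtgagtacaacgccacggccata
Ephb2-202 junction: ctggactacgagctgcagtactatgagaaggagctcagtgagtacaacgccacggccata

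Ephb3 was mostly 1 transcript. Ephb3-201 held 89.9% and 96.6% of the gene. The retained intron transcript Ephb3-202 held 6.79% and 2.75%, from 165 and 56.5 estimated reads. A further intron-retaining form, Ephb3-203, had 15.1 reads in replicate 1 and was listed at 0 in replicate 2. Complete coding transcripts alone put Ephb3 at 23.5 and 25.7 TPM.

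For Ephb6 the level rests in part on a short fragment. Ephb6-203, an incomplete transcript model of 459 nt, held 31.6% and 34.03% of the gene TPM from only 37.6 and 31.7 of its reads, since TPM divides by length. Ephb6-201, the sole complete coding transcript, held 68.4% and 66.0% of the TPM and 95.7% and 95.2% of the reads. On complete coding transcripts Ephb6 was at 8.01 and 7.30 TPM, and the lower run of genes was ordered Efnb3, Ephb2, Ephb6 in place of Ephb6, Ephb2, Efnb3. In that order 4 of the 7 neighbouring pairs exceeded the spread, Efnb1 over Ephb3 now among them (log2 0.39 against 0.34), and the lower run still showed no difference beyond it.

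**Figure D3:**
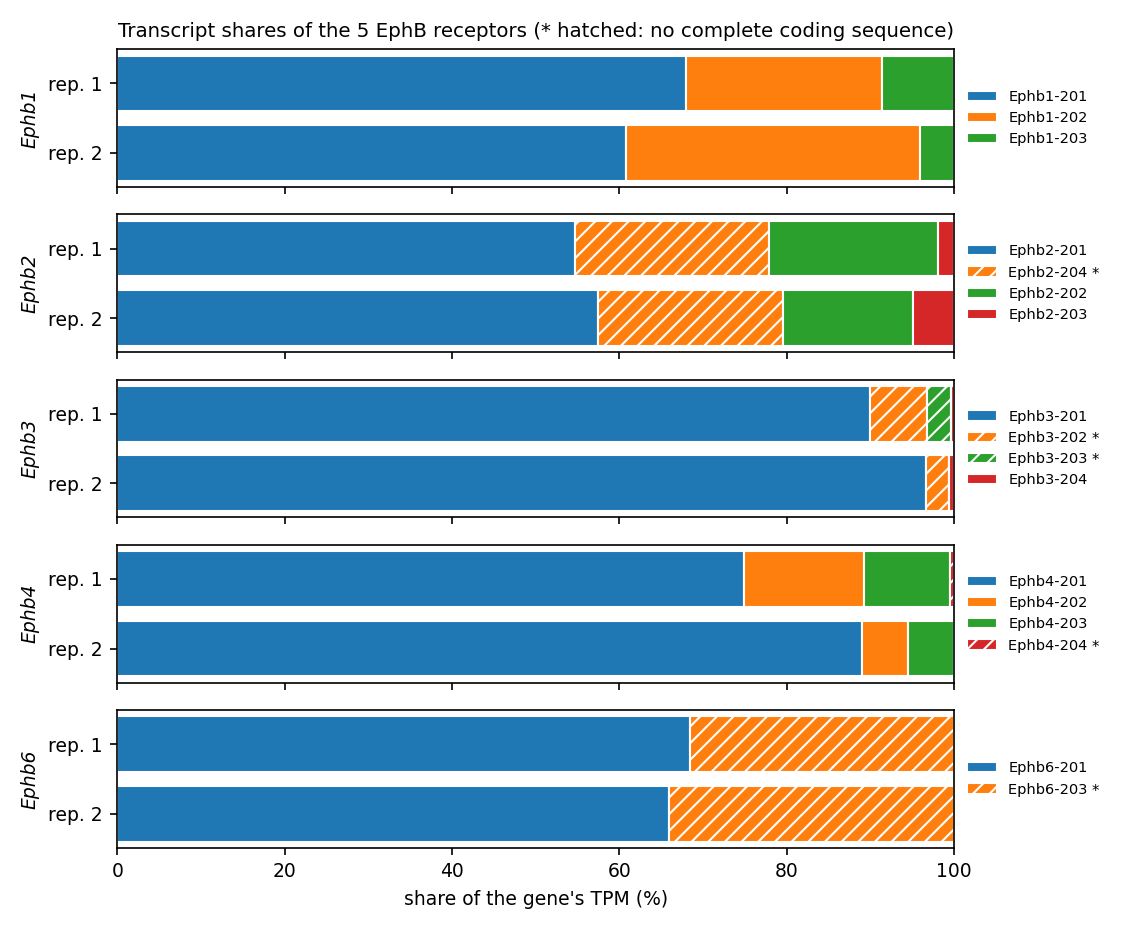
Share of each receptor gene's TPM held by its transcripts, 1 bar per library, with hatching for transcripts without a complete coding sequence. Ephb2 and Ephb6 carry the widest hatched blocks (22.1% to 34.03%), and Ephb4-201 widens from 74.8% to 89.0% between the libraries.

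The 5 receptors share the layout of their coding part. The leading transcripts of Ephb1, Ephb2, Ephb3 and Ephb6 have 16 coding exons and that of Ephb4 has 17. Counted back from the last, 7 of 16 exon lengths were the same in Ephb1, Ephb2, Ephb3 and Ephb4, and 6 of these were also the same in Ephb6. The exception was the fifth exon from the end, in the kinase part, which had 216 nt in the other receptors and 174 nt in Ephb6. Ephb4, the highest receptor, and Ephb6 are set side by side here because the RNA of both was present while their kinase parts differ. Capitals mark the codons of the catalytic loop motif and of the motif that opens the activation segment in Ephb4, and the bases of Ephb6 aligned to them.
Ephb4 coding exon 5 from the end: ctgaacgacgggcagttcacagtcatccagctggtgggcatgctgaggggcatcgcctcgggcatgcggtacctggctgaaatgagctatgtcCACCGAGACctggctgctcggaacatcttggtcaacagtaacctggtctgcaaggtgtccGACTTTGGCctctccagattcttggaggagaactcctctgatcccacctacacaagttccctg
Ephb6 coding exon 5 from the end: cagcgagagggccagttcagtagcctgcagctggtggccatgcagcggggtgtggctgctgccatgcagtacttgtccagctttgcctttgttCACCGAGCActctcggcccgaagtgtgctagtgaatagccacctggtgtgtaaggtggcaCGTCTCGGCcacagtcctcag

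The Ephb4 exon lies at chr5:137369713-137369928 and the Ephb6 exon at chr6:41618571-41618744, both on the plus strand. They were 62.2% identical over 172 aligned bases. In the catalytic loop motif (CACCGAGAC in Ephb4 and CACCGAGCA in Ephb6) 2 of 9 bases differed, which changes 1 of 3 encoded residues. In the activation segment motif (GACTTTGGC in Ephb4 and CGTCTCGGC in Ephb6) 5 of 9 bases differed, which changes 2 of 3 residues. Read in frame on the coding strand and allowing synonymous codons, both motifs were present in this exon in 4 of the 5 receptors and absent in Ephb6. Over the whole coding sequence, identity ran from 61.9% (Ephb2 and Ephb6) to 73.5% (Ephb1 and Ephb2) among 10 receptor pairs, and from 62.1% to 66.1% among the 3 ligand pairs. The longest identical run was 38 nt between receptors (Ephb1 and Ephb3) and 22 nt between ligands.

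**Figure D4:**
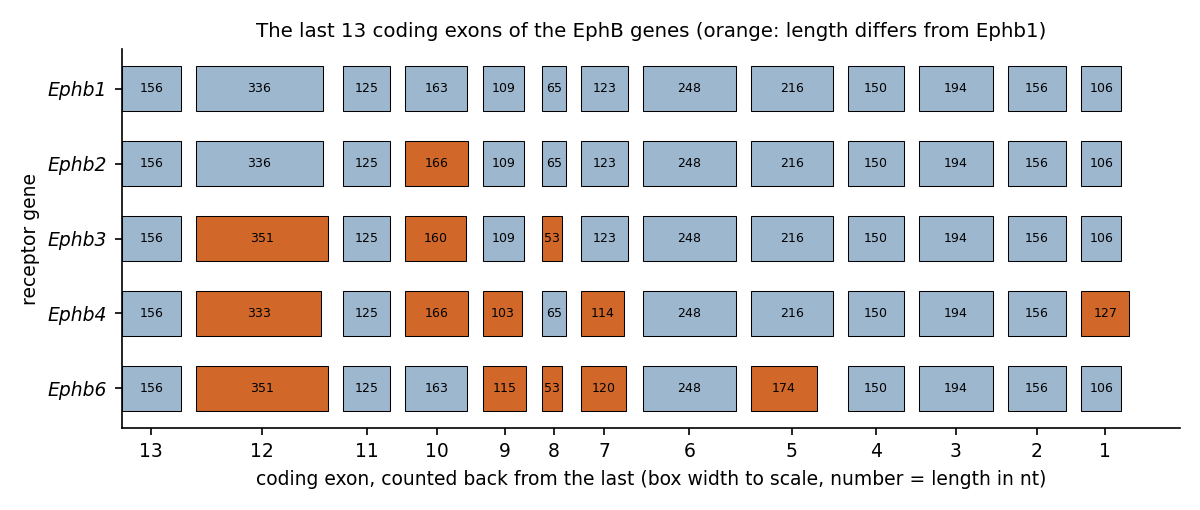
The last 13 coding exons of the leading transcript of each EphB gene, counted back from the last, with box width to scale and the length in nt inside; orange boxes differ in length from Ephb1. The fifth exon from the end is 216 nt in 4 receptors and 174 nt in Ephb6, and exons 2, 3, 4 and 6 from the end have 1 length in all 5.

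Between the pools, 6 of the 8 genes were higher in replicate 2 after scaling by the trimmed mean of M values (TMM), with log2 ratios of replicate 2 over replicate 1 from 0.08 in Ephb4 to 0.36 in Ephb1. Ephb6 (-0.08) and Efnb3 (-0.21) were lower. An exact binomial test on the reads of each gene, which covers counting error only and compares these libraries and not conditions, called none of the 8 at a Benjamini-Hochberg (BH) adjusted p of 0.05 and a log2 ratio of at least 1, beside 2.99% of the 16787 genes tested. On the adjusted p alone it called 6 of 8, beside 29.3% of all genes, and at an unadjusted p under 0.05 it called 7 of 8, beside 38.8%. These shares are over genes of all read counts, and the test calls smaller ratios where reads are many. Calls with the minimum ratio lay mostly at few reads: 502 of all genes, but 75 with at least 100 reads. The share at like read counts was not counted. The smallest adjusted p of the exact binomial test was that of Efnb2 (log2 0.23, BH-adjusted p = 1.12e-06) and the largest that of Ephb6 (BH-adjusted p = 0.478). The exact test of edgeR, with a dispersion trend over abundance estimated from the same pair of libraries, called 0 of 8 (0.185% of all genes). At an unadjusted p under 0.05 it also called 0 of 8 (4.76%). That dispersion takes in the difference between the libraries under test, so few calls follow by construction. The 0 of 8 therefore does not show equal levels. The common coefficient of variation between the libraries was 7.65% over 16118 genes.

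The sizes of these differences lay within those of genes of like abundance. Genes with a mean of 10 to 100 TPM had a median difference of 0.09 (log2, in size) and a 95th percentile of 0.30, and the 7 genes of the set in that range had 0.08 to 0.26. Genes with 1 to 10 TPM had a median of 0.20 and a 95th percentile of 0.79, beside 0.36 for Ephb1. The direction depended on the scaling. With the spike-in reads as the scale, the median of all genes moved by -0.59 and all 8 genes were lower in replicate 2, from -0.22 in Ephb1 to -0.79 in Efnb3, and relative to that shift 6 of the 8 stayed above the median. Spike-ins took 5.37% of the reads in replicate 1 and 7.92% in replicate 2.

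**Figure D5:**
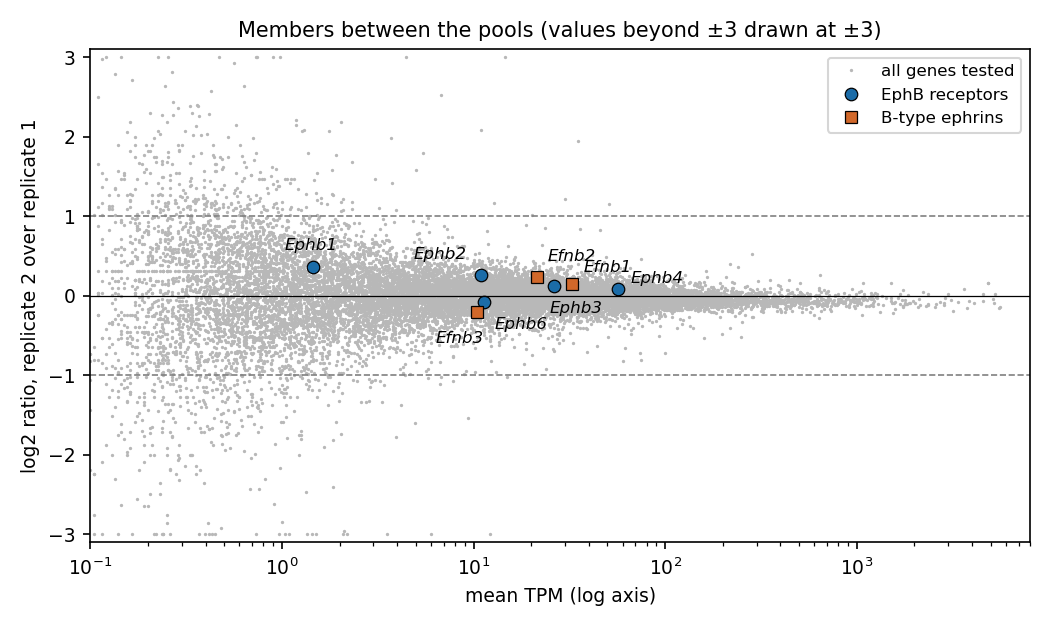
Log2 ratio of replicate 2 over replicate 1 after TMM scaling against mean TPM (log axis), with all genes tested in grey and the 8 genes marked; dashed lines are at 1 and -1. All 8 lie between -0.21 and 0.36, inside the dashed lines.

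The genes that carry the signal onward were broadly present. Over 4 lists of pathway genes 62 of 68 were at 1 TPM or more in both libraries, beside 56.3% of protein-coding genes. The median of the 68 was 18.7 TPM, against 3.02 TPM for all protein-coding genes and 19.9 TPM for the detected ones. By level the pathway genes were thus close to detected genes in general. The lists were picked from known pathway members, and most are used by many receptors besides the EphB ones.

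Of the adaptors, kinases and phosphatases that bind EphB receptors, 23 of 25 were detected, with a median of 28.4 TPM. The highest were the adaptor Grb10 at 217 and 168 TPM, the adaptor Crk at 84.9 and 81.8 TPM, and the low molecular weight phosphatase Acp1 at 81.2 and 73.7 TPM.

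Of the partners of ephrin-B reverse signalling, 11 of 12 were detected, with a median of 16.0 TPM. The gap junction protein gene Gja1 led at 258 and 248 TPM, before the PDZ protein gene Sdcbp at 247 and 232 TPM and the Wnt pathway adaptor Dvl2 at 37.3 and 38.5 TPM. Of the proteases that shed and cut EphB receptors and ephrins, 10 of 12 were detected, with a median of 23.5 TPM. The highest were the matrix protease Mmp2 at 158 and 154 TPM and the gamma-secretase subunits Psenen at 102 and 83.2 TPM and Ncstn at 68.8 and 66.3 TPM.

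In these 4 lists the exact binomial test called 4 of 67 genes between the pools, beside 2.99% of all genes. All 4 were at low levels. Anks1b (20 and 35 reads) and Grip2 (14 and 29 reads) were higher in replicate 2, and Ptpro (39 and 13 reads) and Mmp9 (32 and 9 reads) were lower.

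Marker genes were read for the cell types that could hold these receptors and ligands. Limb mesenchyme markers were present (10 of 10 detected, summed at 761 and 720 TPM), led by the homeobox genes Msx1, Prrx1 and Pitx1 at 174, 149 and 135 TPM on average. Endothelial markers were present in 10 of 10 (229 and 212 TPM), led by Egfl7, Plvap and Esam at 54.0, 44.0 and 22.2 TPM. Venous markers were at 117 and 111 TPM (4 of 4; Nrp2, Nr2f2 and Aplnr at 47.2, 36.5 and 26.1 TPM), and arterial ones at 72.9 and 66.0 TPM (7 of 8; Hey1, Gja4 and Sox17 at 43.7, 9.09 and 5.22 TPM). Several of the vessel markers, Nrp2, Nr2f2 and Hey1 among them, are also used by limb mesenchyme. By mean level Ephb4 was above each of these vessel markers, though in replicate 1 Egfl7, at 57.4 TPM, was above its 56.5 TPM.

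Other tissues of the limb were present too. Ectoderm (9 of 9; Krt14, Fgf8 and Perp at 37.6, 34.2 and 33.1 TPM), cartilage condensations (5 of 6; Col2a1, Sox9 and Col9a1 at 185, 162 and 61.4 TPM) and muscle precursors (5 of 5; Myog, Myod1 and Myf5 at 23.7, 17.3 and 15.1 TPM) were all found. Neuron markers were detected in 8 of 10 (Gap43, Isl1 and Dcx at 32.4, 13.6 and 8.40 TPM) and macrophage markers in 4 of 5 (C1qb, Fcer1g and Tyrobp at 12.6, 10.3 and 8.05 TPM). The Schwann precursor markers Ngfr and Erbb3 had 9.90 and 6.01 TPM. T cell markers were detected in 1 of 6 (Lck at 8.78 TPM, with Cd8a at 0) and gut epithelium markers in 1 of 4 (Lgr5 at 3.75 TPM). No marker that was tested between the pools was called, beside 2.99% of all genes tested. Markers with fewer than 20 reads in all were not tested. This left 1 of 6 T cell, 8 of 10 neuron and 3 of 4 gut epithelium markers in the test. The part of each cell type in the level of any receptor or ligand was not tested.

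A pair of the 8 genes share exon bases with a gene on the opposite strand. Ephb1 shares 152 nt with Gm26846, which had 8.01 and 4 reads, and Ephb4 shares 33 nt with Zan, which had 0 and 3 reads. The sources used here do not say whether the counting used strand. The counts of both partners were small beside those of Ephb1 (159 and 164) and Ephb4.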

How the data were processed

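Total RNA of 2 pooled limb samples was measured. The authors deposited expected counts (estimated reads, not normalised), TPM, FPKM and the percent of the gene TPM held by each transcript, and the limits of a credibility interval on each TPM estimate, whose level is not stated. These deposited limits were recorded under the unit signal only because they are never negative. Per the file headers, the files were quantified on mm10 with GENCODE M4. Not given in the sources used here are the aligner and the strand setting. The deposited values cover 43346 genes, 97 spike-ins, which held 11.8% and 17.2% of TPM, and 26248 entries named by a number only. Spike-ins and number-only entries stayed out of library sizes and tests. The latter held 6.29e-05% and 4.76e-05% of the reads.

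Expected counts were rounded to whole numbers, scaled by TMM (edgeR 4.0.16, R 4.3.3) and compared between the libraries with a two-sided exact binomial test for genes with at least 20 reads in all, with BH adjustment over all genes tested. Because the labels give 1 group, no quasi-likelihood or DESeq2 (1.42.0) contrast could be fitted. DESeq2 gave size factors only. The exact test of edgeR was an alternative. The binomial p-values cover counting error only and hold no spread between libraries, while those of edgeR include a dispersion estimated from this pair. Log2 ratios between genes used log2(TPM + 0.1), with spread from 20 bins of abundance. The binomial step was tested on simulated data. Coding structure, coordinates and sequences come from GENCODE M21 on GRCm38, in which 26 of the 27 transcripts have the deposited length (not Efnb2-201). Coding sequences were aligned with Biopython 1.88.

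The members and lists were chosen with earlier results of these data known. The text names all 8 genes, Epha4 and Efna5, the highest and lowest class A receptor and ligand, the 3 highest of each other list, list genes called between the pools, and markers at 0, except that 1 pathway list and 1 marker are not reported here. Gm26846, Zan, Epha6 and Epha8 fall outside that rule and were named after their values were seen. No gene was named for likeness of pattern, since 2 libraries of 1 group give no pattern to compare. Intervals cover counting and assignment error only.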

Additional observations from a re-analysis of the deposited data

How the results depend on the processing

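No paired analysis was possible because the labels give 1 group. Of the levels, shares and counts under an alternative, 113 moved by no more than the SD of the libraries or, for counts, stayed within 1.5 times. A further 38 moved beyond that, 2 counts gained and 1 lost. Leaving out 1 of 2 libraries cannot move a mean by more than their SD. Those cases are among the 113, were fixed in advance and say nothing about stability. The unit moved every level. In the order Ephb1, Ephb2, Ephb3, Ephb4, Ephb6, Efnb1, Efnb2, Efnb3, mean FPKM was 0.965, 7.21, 17.3, 37.5, 7.53, 21.5, 14.2 and 6.91. TPM over genes only was 1.71, 12.8, 30.7, 66.4, 13.3, 38.0, 25.2 and 12.2, and TMM-scaled counts per length were 1.04, 7.73, 18.6, 40.2, 8.06, 23.0, 15.2 and 7.40. These follow from the construction of each unit. Complete coding transcripts, chosen after seeing the data, gave 8.43 TPM for Ephb2, 24.6 for Ephb3 and 7.66 for Ephb6, with 4 neighbouring pairs beyond the spread in place of 3, and the posterior mean gave 55.6 TPM for Ephb4. Over genes only, the receptor sum was 124.9 TPM and the ligand sum 75.4 TPM. On expected counts the B-class share was 47.5% of receptors and 42.1% of ligands. The posterior mean put leading transcripts at 59.1% (Ephb1-201), 53.2% (Ephb2-201), 64.2% (Ephb6-201) and 99.3% (Efnb2-201), and the share of counts at 50.4% (Ephb2-201) and 95.4% (Ephb6-201). At least 5 TPM left 3 class A receptors. With the 90th percentile as the spread, 5 neighbouring pairs differed, and with no minimum log2 ratio 6 of the 8 genes differed between the pools. Spike-in totals shift every gene by the same -0.59 (log2), which by construction turned the log2 ratios to -0.22 (Ephb1), -0.33 (Ephb2), -0.46 (Ephb3), -0.51 (Ephb4), -0.44 (Efnb1) and -0.35 (Efnb2). These sign changes come from the scale and carry no information on single genes. The count of all genes called, 502, became 1400 with spike-in totals, 75 with at least 100 reads, 4920 with no minimum ratio and 31 with the exact test of edgeR.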
